A study of Mus musculus with 7 samples.

Results

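The 10 genes described here belong to the glutathione transferase and glutathione peroxidase families and were read in neonatal brown fat with and without glycerol kinase. They are the transferase genes Gsta3, Gsta4, Gstm1, Gstm2, Gstm5, Gstp1 and Gstt1 and the peroxidase genes Gpx1, Gpx3 and Gpx4. The list was chosen with earlier results of these data known, and every probe set of a listed gene was read, whatever its values. All 10 genes had a probe set, 15 of the 45037 probe sets on the array. The samples were 4 Gyk knockout (KO) samples, replicates 1 to 4, and 3 wild-type (WT) samples, replicates 1, 3 and 4, all brown fat of male C57BL/6J mice at an age of 3 days. Gyk encodes glycerol kinase, which makes glycerol 3-phosphate from glycerol. The sources used here do not give how the knockout allele was made or in which cells Gyk is lost. Each sample's RNA was read on 1 array as signal intensities on a linear scale, so precision is limited by how few arrays there are. Nothing in the labels ties the replicates to different animals. The p-values therefore cover only the variation among these 7 arrays, which may be technical.

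Glutathione transferases join the tripeptide glutathione to reactive compounds, among them drugs and the aldehydes that form when lipids are oxidised. Glutathione peroxidases use glutathione to reduce hydrogen peroxide and lipid peroxides, and Gpx1, Gpx3 and Gpx4 carry selenocysteine in their active site. Brown fat burns fatty acids in its many mitochondria, a setting in which peroxides and lipid aldehydes arise.

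The arrays carried the signature of brown fat. Ucp1, the uncoupling protein of heat production, read 26887 to 37577 on the KO arrays and 29264 to 33706 on the WT arrays. Of 12 brown adipocyte markers 0 changed, where only 1.83% of all tested genes did. The array labelled KO replicate 2 stood apart from the other KO arrays. It scored 13.8 on the first principal component (35.3% of the variance), against -35.7 to -33.4 for KO replicates 1, 3 and 4 and 23.0 to 33.3 for the WT arrays. Xist, which female cells transcribe from their silenced X, read 893 on this array with probe set 1427262_at and at most 13.1 on every other array, although all samples are labelled male. The Y-linked gene Eif2s3y was also present there, at 1252 with its brighter probe set, against 1210 to 1566 on the other arrays. Other Y-linked genes read lower there with their brightest probe sets, Uty at 475.3 against 697.3 to 854 on the other arrays and Kdm5d at 325.1 against 386.4 to 471.1. Whether this array is mislabelled or holds mixed RNA was not tested. Below, KO replicate 2 means the array so labelled, and results are given with and without it. The probe table pairs no probe set with Gyk, and genotype is known here from the labels alone.

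The regions upstream of the 3 genes with the largest differences between KO and WT were read from the RefSeq promoter table (build GRCm38.p6), to show the sequence at the genes the results turn on. The 250 bases before the outermost listed start of each gene are printed 5′ to 3′ on the gene's strand, at chr3:107986421-107986670 (minus strand) for Gstm2, chr3:108017974-108018223 (minus strand) for Gstm1 and chr11:54902604-54902853 (plus strand) for Gpx3. Capitals mark matches, on either strand, to 4 motifs. They are the antioxidant response element core TGACNNNGC, the glucocorticoid receptor half-site AGAACA, the GC box GGGCGG and the TATA box TATAAA.
Gstm2: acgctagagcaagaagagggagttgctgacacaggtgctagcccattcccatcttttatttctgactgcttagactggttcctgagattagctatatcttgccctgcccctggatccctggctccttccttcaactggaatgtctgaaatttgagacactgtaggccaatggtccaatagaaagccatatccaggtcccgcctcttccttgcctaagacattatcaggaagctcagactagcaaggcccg
Gstm1: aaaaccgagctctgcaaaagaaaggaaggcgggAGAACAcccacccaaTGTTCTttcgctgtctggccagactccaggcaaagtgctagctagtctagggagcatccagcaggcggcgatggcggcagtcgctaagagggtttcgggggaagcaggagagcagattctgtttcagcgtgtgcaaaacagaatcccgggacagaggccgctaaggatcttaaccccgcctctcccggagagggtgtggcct
Gpx3: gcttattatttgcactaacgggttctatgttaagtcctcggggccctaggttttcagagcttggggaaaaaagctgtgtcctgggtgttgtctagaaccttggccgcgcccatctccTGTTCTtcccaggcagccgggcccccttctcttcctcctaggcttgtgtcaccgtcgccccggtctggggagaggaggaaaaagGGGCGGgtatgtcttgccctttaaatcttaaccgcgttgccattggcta

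None of these 3 windows held TGACNNNGC. AGAACA matched at 2 places in the Gstm1 window, on opposite strands, and at 1 place in the Gpx3 window, which also held 1 GC box. The Gstm1 matches started at -217 and -202 bases from the gene start. Each is a half-site, and whether the 2 form a full receptor site was not tested. The Gstm2 window held no match to any of the 4 motifs. Gstm1 has another listed start, whose window (chr3:108017819-108018068) is not printed. That window held a TATA box match starting at -30 bases from that start and no match to AGAACA. Of all 32841 promoter windows of this length, 10.2% held TGACNNNGC, 16.1% AGAACA, 32.7% GGGCGG and 12.4% TATAAA. The table held 13 windows of 9 of the genes, all but Gsta4, and TGACNNNGC occurred in 2 of them, those of Gsta3 and Gstm5. A match describes the letters in the window and is not evidence of binding.

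Values were compared as log2(signal + 30.6), where a fold change understates the change of a low signal, and 27022 probe sets with enough signal were tested (limma, two-sided, Benjamini-Hochberg adjustment over all of them). Of the 15 probe sets 13 were tested, for 9 of the 10 genes, and 0 passed an adjusted p of 0.05. Over all tested probe sets 1.59% passed, 0.951% higher and 0.644% lower in KO. At an unadjusted p under 0.05 there were 5 of 13, against 16.5% of all tested probe sets, but 3 of these 5 measure the same gene, Gstm1. The same 5 probe sets were those whose KO and WT arrays did not overlap, as was so for 14.7% of all tested probe sets. Of the 5, 4 were higher in KO (7.48% of all tested) and 1 lower (7.25%). The median log2 difference was 0.13 over the 13 probe sets and 0.00 over all tested. Without KO replicate 2, 2 of the 13 passed, Gpx3 higher and Gstm2 lower, where 7.35% of all tested probe sets passed, 3.14% higher and 4.21% lower.

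**Figure D1:**
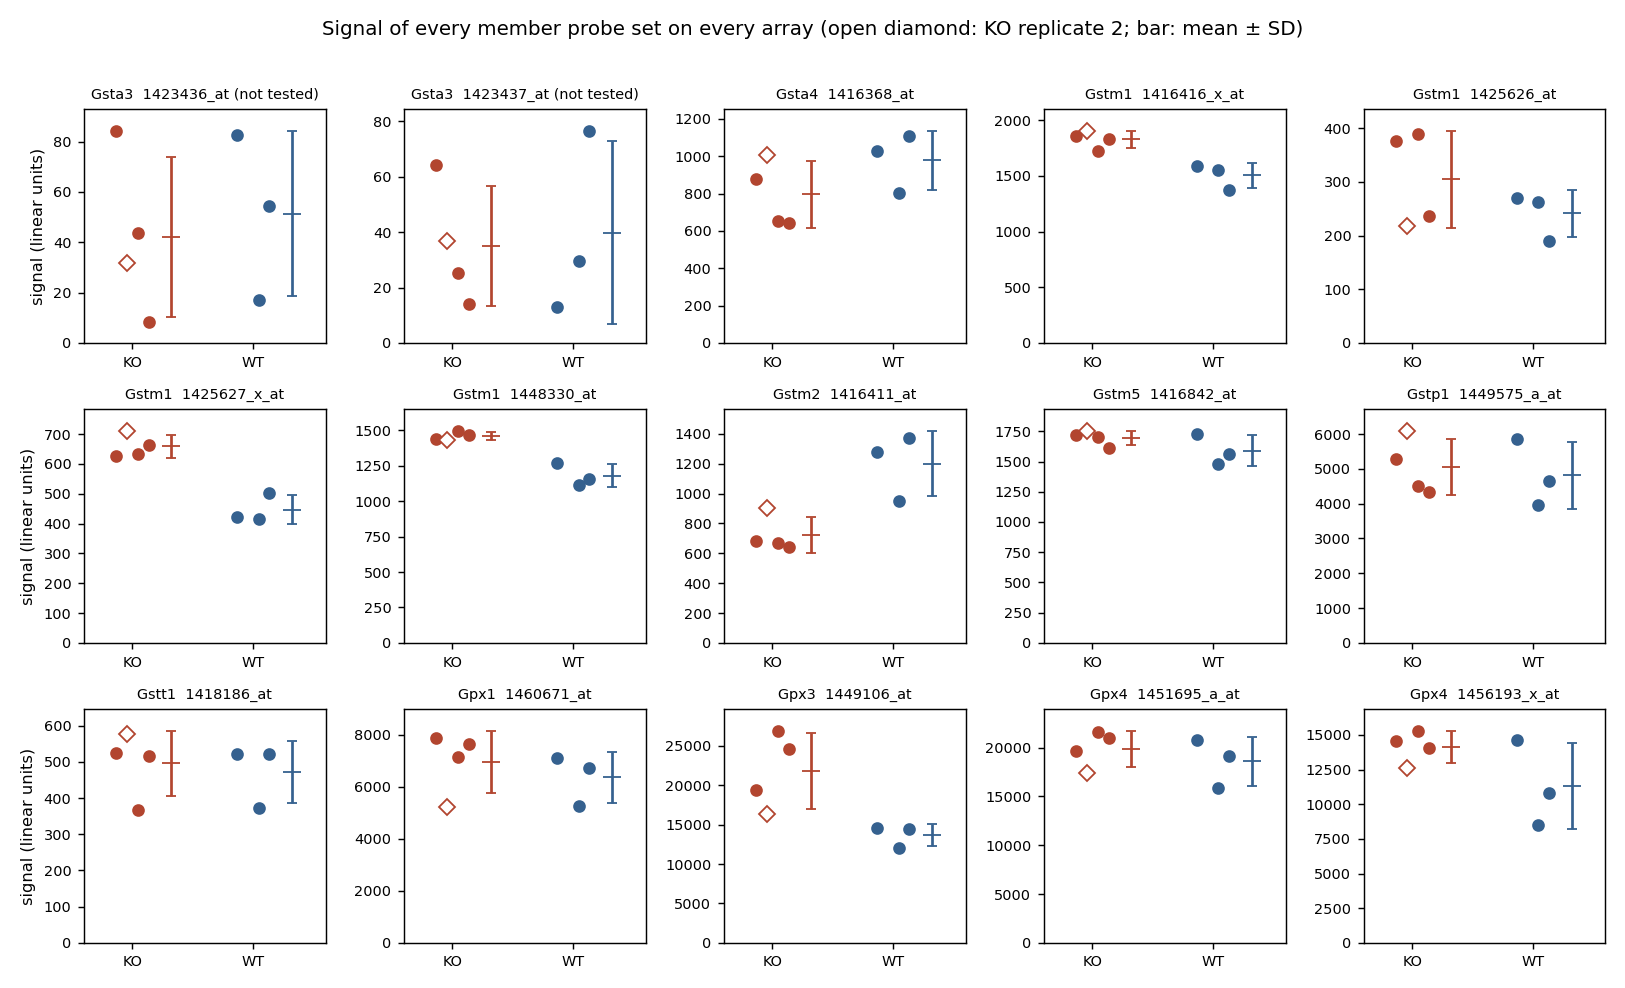
Signal of each of the 15 probe sets, in linear units from 0, with KO arrays on the left and WT arrays on the right of each panel. Points are single arrays, the open diamond is KO replicate 2, and bars give the mean ± SD. The KO and WT points are apart for Gstm2, Gpx3 and 3 of the 4 Gstm1 probe sets.

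Gstm2, a mu-class transferase, had the most negative log2 difference of the 13 tested probe sets. Its probe set 1416411_at read 682, 903, 668.4 and 642.7 on KO arrays 1 to 4, against 1278, 952.7 and 1374 on WT arrays 1, 3 and 4. Every KO array lay below every WT array, though KO replicate 2 and WT replicate 3 were close. The means were 724 ± 120 in KO (SD, n = 4) and 1202 ± 221 in WT (n = 3), a log2 difference of -0.70 ± 0.16 (SE, limma adjusted p = 0.0613), or 1.63-fold lower. Without KO replicate 2 the KO mean was 664.4 ± 20 and the log2 difference -0.81 (adjusted p = 0.0109).

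Gstm1, the neighbouring mu-class gene, differed in the opposite direction on all 4 of its probe sets, none of which passed. Probe set 1425627_x_at read 628.2, 711.8, 633.2 and 664.3 on KO arrays 1 to 4, against 422.3, 416.1 and 502.8 on WT arrays 1, 3 and 4. Here KO replicate 2 was the highest of all arrays, and the groups did not overlap. The log2 difference was 0.53 ± 0.13 (limma adjusted p = 0.069), with means of 659 ± 38.4 in KO (SD, n = 4) and 447 ± 48.4 in WT (n = 3). Without KO replicate 2 it was 0.50 (adjusted p = 0.052).

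Probe set 1448330_at of Gstm1 gave a tighter KO group, with 1443, 1435, 1499 and 1470 in KO arrays 1 to 4 against 1270, 1116 and 1156 in WT arrays 1, 3 and 4 (log2 difference 0.30 ± 0.10, limma adjusted p = 0.173). Probe set 1416416_x_at of Gstm1 averaged 1830 ± 77.4 in KO and 1506 ± 113 in WT (log2 difference 0.28, adjusted p = 0.215). The groups overlapped on Gstm1 probe set 1425626_at, which spanned 217.2 to 389.6 in KO and 190.7 to 269.8 in WT (0.28 ± 0.23). The suffix _x_at marks probe sets with probes that also match other sequences. Signal from related Gstm genes cannot be told apart from that of Gstm1 there. Probe sets 1448330_at and 1425626_at carry no such mark, and only on 1448330_at were the groups apart. The largest Gstm1 difference came from a probe set marked _x_at.

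Gstm5, the third mu-class gene of the list, varied least of the 13 tested probe sets, 1.18-fold between its highest and lowest array. It read 1716, 1753, 1703 and 1611 in KO arrays 1 to 4 and 1729, 1481 and 1558 in WT arrays 1, 3 and 4. The groups overlapped, with a log2 difference of 0.09 (95% interval -0.14 to 0.33).

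The mu-class genes lie together on chromosome 3 in the order Gstm5, Gstm7, Gstm6, Gstm3, Gstm2, Gstm1 and Gstm4 in the RefSeq table, which was used here for their order. Gstm4, on the far side of Gstm1, averaged 331 ± 50.7 in KO (SD, n = 4) and 483 ± 40.1 in WT (n = 3), with every KO array below every WT array (log2 difference -0.51 ± 0.15, limma adjusted p = 0.128). Without KO replicate 2 Gstm4 passed (-0.60, adjusted p = 0.0389). The Gstm7 probe sets (0.13 and 0.08) and the tested Gstm3 probe set (-0.04) differed little, and Gstm6 was below the limit for testing. The other Gstm3 probe set was also below this limit, with signals of 4.9 to 9.9 over all arrays. The tested Gstm3 probe set averaged 813 in KO and 827 in WT. Whether it reads Gstm3 alone was not tested. Gstm1, with 4 positive values, thus lay between Gstm2 and Gstm4, with negative ones. The difference between neighbouring genes was not itself tested.

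**Figure D2:**
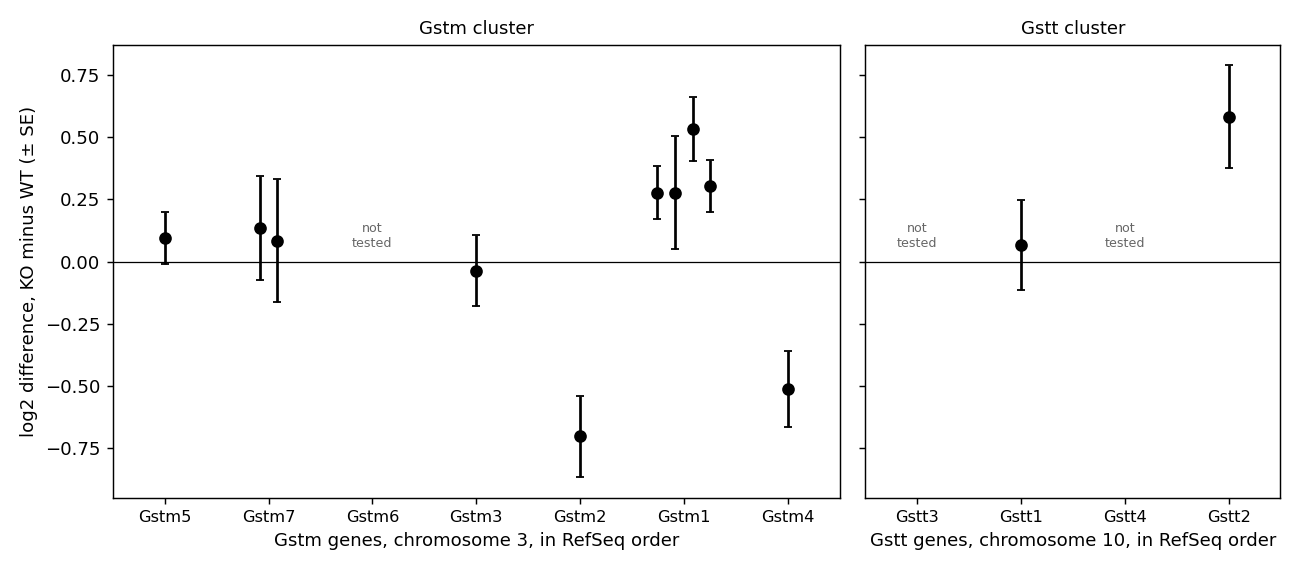
Log2 difference between KO and WT (± SE, all 7 arrays) for each tested probe set of the Gstm genes on chromosome 3 and the Gstt genes on chromosome 10, in their RefSeq order. Gstm2 (-0.70) and Gstm4 (-0.51) lie below 0 and the 4 Gstm1 probe sets (0.28 to 0.53) above it.

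Among the other transferases of the list no group difference exceeded the spread between arrays. Gsta4, an alpha-class transferase that favours the lipid aldehyde 4-hydroxynonenal, read 880.5, 1009, 655.6 and 640.9 in KO arrays 1 to 4 and 1028, 800.9 and 1107 in WT arrays 1, 3 and 4. KO replicates 3 and 4 were the lowest and the groups overlapped (log2 difference -0.30, 95% interval -0.70 to 0.10). Gsta4 on KO replicate 2 lay within the WT range, and without that array the log2 difference was -0.42 (limma adjusted p = 0.175).

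Gstp1, the pi-class transferase, spanned 4324 to 6101 in KO and 3954 to 5845 in WT, with a log2 difference of 0.08 (95% interval -0.27 to 0.42). Its close relatives Gstp2 and Gstp3 lie beside it on chromosome 19, so signal from them cannot be told apart from its own where probes match both. Gstt1, a theta-class transferase, spanned 368.2 to 577.9 in KO and 372.5 to 521.9 in WT, with a log2 difference of 0.07 (95% interval -0.33 to 0.47). The KO range of each gene covered most of its WT range.

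Gstt2, a relative of Gstt1 in the theta cluster on chromosome 10, read 1237, 1295, 1961 and 2386 in KO arrays 1 to 4, against 1087, 1079 and 1122 in WT arrays 1, 3 and 4. Every KO array lay above every WT array, KO replicates 3 and 4 by the most (log2 difference 0.58 ± 0.21, limma adjusted p = 0.189, and 0.0693 without KO replicate 2).

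Gsta3, another alpha-class gene, had only low signals and was not tested. Probe set 1423436_at spanned 8.3 to 84.4 in KO and 17.1 to 82.7 in WT, and 1423437_at spanned 13.9 to 64.1 in KO and 12.9 to 76.6 in WT. Both lay at or below the percentile 23.7 of all probe sets by mean log2 value, where array background cannot be told apart from a low transcript level.

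Gpx3, the secreted peroxidase of plasma, had the most positive log2 difference of the 13 tested probe sets. Its only probe set, 1449106_at, read 19405, 16305, 26929 and 24641 on KO arrays 1 to 4, against 14559, 12009 and 14452 on WT arrays 1, 3 and 4. The groups did not overlap, KO replicates 3 and 4 were the highest, and KO replicate 2 was the KO array nearest to WT. The means were 21820 ± 4841 in KO (SD, n = 4) and 13673 ± 1443 in WT (n = 3), a log2 difference of 0.65 ± 0.16 (limma adjusted p = 0.0792), or 1.57-fold higher. Without KO replicate 2 Gpx3 passed (0.78 ± 0.14, adjusted p = 0.00891). These signals lay at the percentile 99.4 of all probe sets, near the top of the range, where an array can compress differences.

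Gpx4, the peroxidase that reduces lipid peroxides within membranes, had no difference beyond the array spread. Probe set 1451695_a_at of Gpx4 read 19594, 17398, 21557 and 21004 in KO arrays 1 to 4, and 20739, 15834 and 19143 in WT arrays 1, 3 and 4 (log2 difference 0.10, 95% interval -0.16 to 0.37). Probe set 1456193_x_at of Gpx4 read 14579, 12598, 15321 and 14063 in KO arrays 1 to 4, and 14633, 8528 and 10820 in WT arrays 1, 3 and 4 (0.35, 95% interval -0.003 to 0.70, limma adjusted p = 0.307). WT replicate 3 was the lowest array on both, and WT replicate 1 lay within the KO range.

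Gpx1, the main peroxidase of the cytosol, read 7878, 5238, 7132 and 7629 in KO arrays 1 to 4 and 7116, 5255 and 6712 in WT arrays 1, 3 and 4. KO replicate 2 and WT replicate 3 were both low and nearly equal, and the groups overlapped (log2 difference 0.13, 95% interval -0.22 to 0.47). Across the 13 tested probe sets WT replicate 3 was the lowest of the 7 arrays on 7 and the highest on 0, although all arrays had the same trimmed mean signal of 500.003.

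**Figure D3:**
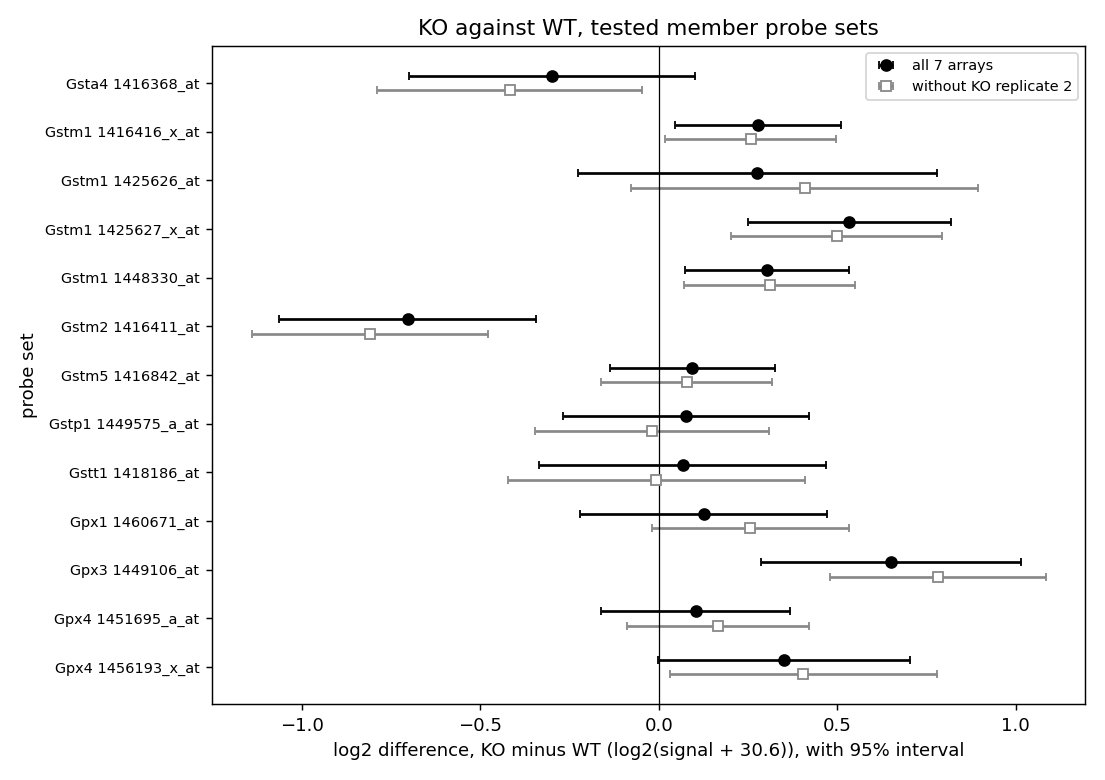
Log2 difference between KO and WT with its 95% interval for the 13 tested probe sets, from all 7 arrays (filled circles) and without KO replicate 2 (open squares). Gstm2 lies at -0.70 and -0.81, Gpx3 at 0.65 and 0.78, and Gstp1, Gstt1 and Gstm5 near 0 in both.

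The arrays also fall into 2 ranges of sample accession, and the second principal component (16.4% of the variance) followed these. KO replicates 1 and 2 with WT replicate 1 form the first range, and KO replicates 3 and 4 with WT replicates 3 and 4 the second. The accession range as a covariate left the log2 differences of Gstm2 at -0.74 (limma adjusted p = 0.0445) and of Gpx3 at 0.69 (adjusted p = 0.0479), so that both passed, where 2.34% of all tested probe sets did, 1.25% higher and 1.08% lower. Within the first range Gstm2 differed by -0.68 and within the second by -0.78 (adjusted p = 0.0777). Gpx3 differed by 0.29 within the first range and by 0.97 within the second, where it passed (adjusted p = 0.0134) as did 2.69% of all tested probe sets, 1.30% higher and 1.39% lower. Gpx4 probe set 1456193_x_at differed by -0.11 and 0.61, and Gpx1 by -0.15 and 0.31. The first range holds KO replicate 2 and, for WT, only replicate 1. Gpx3 read 19405 on KO replicate 1 and 16305 on KO replicate 2 there, against 14559 on WT replicate 1. In the second range it read 26929 and 24641 on KO replicates 3 and 4, against 12009 and 14452 on WT replicates 3 and 4. Gpx4 probe set 1456193_x_at read 14579 on KO replicate 1 and 14633 on WT replicate 1. With KO replicate 2 set aside the first range has only 1 KO and 1 WT array. The part of KO replicate 2 in a difference between the ranges was not tested. A test of the difference between the ranges, chosen after these values were seen, gave an adjusted p of 1 (limma) for Gpx3 and for each of the other 12 tested probe sets, with unadjusted p-values of 0.0119 for Gpx3 and 0.0118 for Gpx4 1456193_x_at.

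Related genes were each read with their brightest probe set, for 102 tested genes of glutathione supply, other transferases and peroxidases, peroxide and thioredoxin enzymes, selenoprotein synthesis and the targets of the regulators Nrf2, Car and Pxr. Of these 3 rose and 0 fell, against 1.83% of all tested genes changed, 1.12% higher and 0.710% lower. The median log2 difference was 0.03, against -0.01 over all tested genes. The 3 genes were Dpep1, Cyp2b10 and Cyp2b9. Without KO replicate 2, 6 rose and 7 fell, against 8.38% of all tested genes changed, 3.39% higher and 4.99% lower.

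Dpep1, a membrane dipeptidase that splits the cysteinylglycine left when glutathione is broken down outside the cell, was the only member of the list of glutathione synthesis and recycling to pass (1 of 16 rose, 0 fell, median 0.18). It read 1488, 1019, 1409 and 1543 in KO arrays 1 to 4, against 854.9, 803.1 and 634.9 in WT arrays 1, 3 and 4. The groups did not overlap (1.75-fold higher in KO, log2 difference 0.80 ± 0.16, limma adjusted p = 0.0434), while the other Dpep1 probe set, 1435943_at, did not pass (0.68, adjusted p = 0.0826). The call on the first probe set was lost when any array other than KO replicate 2 was left out, with adjusted p-values of 0.103 to 0.167, and with quantile normalization (0.052), median scaling, no filter or no mean-variance trend.

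The enzymes that make and restore glutathione did not pass. Gclc, the catalytic subunit of the rate-limiting enzyme, averaged 623 ± 132 in KO (SD, n = 4) and 512 ± 49.3 in WT (n = 3), with a log2 difference of 0.25 (95% interval -0.11 to 0.62). Its modifier subunit Gclm differed by 0.18, the synthetase Gss by 0.11 and the reductase Gsr by 0.18. Chac2, which breaks glutathione down inside the cell, was 1.38-fold higher (limma adjusted p = 0.137), Cth, which makes cysteine, 1.54-fold (adjusted p = 0.148) and Ggt5, which cleaves leukotrienes and glutathione conjugates, 1.33-fold (adjusted p = 0.259). Gclc, Gclm, Gss and Gsr were named after their values were seen.

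Of 15 other transferases 0 passed with all arrays, and Mgst2 and Gstm4 fell without KO replicate 2. Mgst2, a membrane-bound transferase, read 335.9, 492.8, 186 and 245.5 in KO arrays 1 to 4, against 670.7, 658.4 and 499.5 in WT arrays 1, 3 and 4. Its groups barely separated, at KO replicate 2 and WT replicate 4 (log2 difference -0.96 ± 0.26, limma adjusted p = 0.101, and 0.00967 without KO replicate 2). Gsto2, an omega-class transferase, was 1.66-fold lower (adjusted p = 0.151).

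Among 10 other peroxidases and peroxide enzymes 0 passed with all arrays (median -0.02). Sod3, the superoxide dismutase outside cells, read 4768, 5690, 3778 and 4224 in KO arrays 1 to 4, against 6942, 6092 and 7557 in WT arrays 1, 3 and 4. All KO arrays were below all WT arrays (log2 difference -0.58 ± 0.14, limma adjusted p = 0.0725), and Sod3 passed without KO replicate 2 (adjusted p = 0.0096). Without that array Cat, the peroxisomal catalase, rose (0.41, adjusted p = 0.0286) and Prdx4, a peroxiredoxin of the endoplasmic reticulum, fell (-0.43, adjusted p = 0.0475). Gpx7 was 1.39-fold lower with all arrays (adjusted p = 0.43).

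In selenoprotein synthesis 0 of 17 passed with all arrays (median -0.04). Sephs2, which makes the selenium donor used for selenocysteine, averaged 5146 ± 579 in KO (SD, n = 4) and 3608 ± 290 in WT (n = 3). The groups did not overlap, with a log2 difference of 0.50 ± 0.12 (limma adjusted p = 0.0613, and 0.0407 without KO replicate 2). Selenom, a selenoprotein of the endoplasmic reticulum, was 1.58-fold lower (adjusted p = 0.171, and 0.0153 without that array). Msrb1, a methionine sulfoxide reductase, differed by 0.25, and Scly, which recovers selenium from selenocysteine, by -0.25.

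Of 20 genes of the thioredoxin and glutaredoxin system and of 22 targets and regulators of Nrf2, the transcription factor of the antioxidant response, 0 passed with all arrays (medians -0.02 and 0.01). Sesn2, a stress-induced sestrin, was 1.57-fold higher (limma adjusted p = 0.115) and its relative Sesn1 differed by 0.42 (adjusted p = 0.171). Pgd, of the pentose phosphate pathway that supplies NADPH, was 1.37-fold lower (adjusted p = 0.125, and 0.0175 without KO replicate 2), and the sulfiredoxin Srxn1 1.35-fold lower (adjusted p = 0.134). Bach1, a repressor of antioxidant genes, differed by 0.32 and the malic enzyme Me1 by -0.29. Nqo1, a target often used to read Nrf2 activity and named after its values were seen, averaged 108 ± 24.3 in KO and 104 ± 3.79 in WT (0.02, 95% interval -0.49 to 0.52).

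The list of targets of Car and Pxr, nuclear receptors of drug response in liver, held both remaining calls (2 of 11 rose, 0 fell, median 0.32). Of all tested genes 1.12% were higher and 0.710% lower. Both calls were of Cyp2b genes, and no other tested gene of the list passed with all arrays. Cyp2b10, a cytochrome P450, had a log2 difference of 4.91 ± 0.44 (limma adjusted p = 0.00274). Its relative Cyp2b9 read 286.9, 219.6, 232.9 and 199.3 in KO arrays 1 to 4, against 118.6, 98.7 and 117.7 in WT arrays 1, 3 and 4 (1.86-fold higher, adjusted p = 0.0451). The Cyp2b9 call was lost when any array other than KO replicate 2 was left out (adjusted p = 0.0991 to 0.149), with median scaling, no filter or no mean-variance trend, and within the second accession range. The Cyp2b10 probe set carries the suffix _s_at, and the Cyp2b9 probe set only _at. In either probe set, signals of Cyp2b10 and Cyp2b9 cannot be told apart where probes match both. Whether the log2 difference of 4.91 comes from Cyp2b10 alone was not tested. Rxra, the partner receptor of Car and Pxr, was 1.4-fold higher (adjusted p = 0.085) and Aldh1a7, an aldehyde dehydrogenase, 1.78-fold lower (adjusted p = 0.0982). Both passed without KO replicate 2, Rxra higher (adjusted p = 0.0256) and Aldh1a7 lower (adjusted p = 0.00929).

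**Figure D4:**
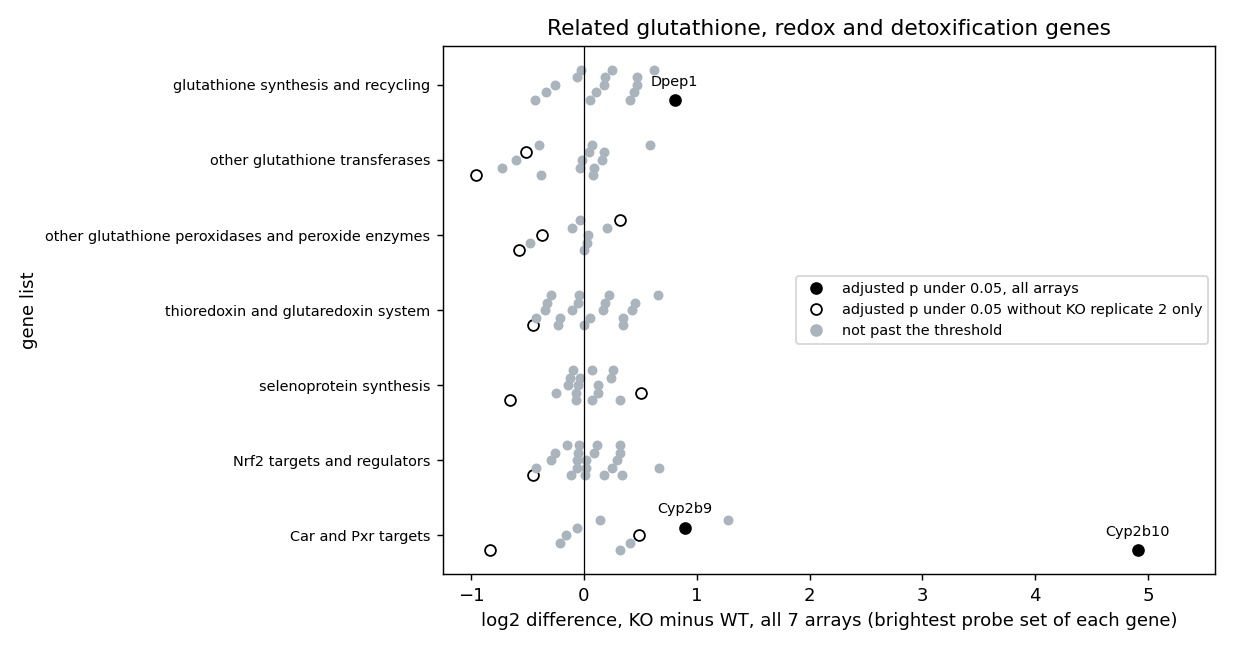
Log2 difference between KO and WT (all 7 arrays, brightest probe set) of each tested related gene, a row per list. Filled black points passed with all arrays (Dpep1, Cyp2b9 and Cyp2b10), open points passed without KO replicate 2, and grey points did not pass.

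Markers of other cell types were read beside these values. In bulk tissue, fewer cells of a type and less RNA per cell cannot be told apart. The 8 tested neutrophil markers had a median of 0.60, and a summed signal of 6437 to 11377 in KO and 4525 to 6952 in WT. Of these 1 rose with all arrays (Chil3, limma adjusted p = 0.034), where 1.83% of all tested genes changed, 1.12% higher. With KO replicate 2 left out, 3 rose (Chil3, Lcn2 and Ngp, adjusted p = 0.00087, 0.00859 and 0.0322). Of all tested genes 8.38% then changed, 3.39% higher and 4.99% lower. The 8 fibroblast markers had a median of -0.31, with 0 changed with all arrays, and a summed signal of 36506 to 59583 in KO, highest on KO replicate 2, and of 57121 to 64406 in WT. Their median was -0.40 without KO replicate 2, and 2 fell, Lum (adjusted p = 0.00543) and Fap (adjusted p = 0.00595), where 4.99% of all tested genes fell. The 7 endothelial markers had a median of -0.30, with 0 changed with or without KO replicate 2, and sums of 7680 to 8565 in KO and 8620 to 10878 in WT, which did not overlap. The neutrophil median was thus positive beside Gpx3 and Gstm1, and the fibroblast and endothelial medians negative beside Gstm2, Mgst2 and Sod3. Their part in those results was not tested. Among macrophage and leukocyte (9 tested, median -0.02), erythroid (3 tested, median -0.10) and skeletal muscle markers (7 tested, median -0.03) 0 changed with all arrays. Without KO replicate 2 the median of the 9 macrophage and leukocyte markers was -0.12. Of these 1 rose, Lyz2 (log2 difference 0.68, limma adjusted p = 0.0181), and 0 fell, where 3.39% of all tested genes rose. Among the erythroid and muscle markers 0 passed without that array.

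The genes whose values were most like those of Gstm2, the member with the smallest p, were Brf2, Rab1b, Fundc2, S100a16 and Dnajc9. Pearson's r with Gstm2 was 0.989 to 0.992 on log2 values over the 7 arrays, which share their genotype groups, and these are the 5 highest of all named genes tested. Fundc2, a protein of the mitochondrial outer membrane, was the only one of the 5 that passed (262 ± 60.6 in KO against 522 ± 103 in WT, log2 difference -0.92 ± 0.20, limma adjusted p = 0.0478).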

How the data were processed

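Brown fat RNA, extracted with Trizol and labelled with biotin per the labels, was hybridised to 1 array per sample. The authors deposited 1 signal intensity per probe set, on a linear scale, and the submitters' processing notes name GCOS 1.2. The sources used here do not give the scaling rule. It was kept, since the mean after trimming 2% at each end was equal on all arrays, whose medians were 131.5 to 154. There were no detection calls.

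The 64 control probe sets were left out, leaving 45037. Names came from the platform's probe table, updated by gene identifier through RefSeq (GRCm38.p6): 34945 probe sets had 1 symbol, 932 several and 9160 none, and only those with 1 symbol were named. The offset of 30.6 added before taking log2 is the 20th percentile of all signals. Probe sets under the 40th percentile of mean log2 value were left out irrespective of genotype. The comparison of KO (n = 4) with WT (n = 3) used limma 3.58.1 (R 4.3.3), with lmFit, a trended eBayes and no covariate, and was tested on simulated data. Of 130 related genes listed, 102 were tested, and from each list the 4 with the smallest p and all that passed were named. The members and lists were chosen with earlier results of these data known.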

Additional observations from a re-analysis of the deposited data

How the results depend on the processing

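The count of 0 changed among the 13 tested probe sets stayed 0 with median scaling, offsets of 1 and 100, no filter, no mean-variance trend and a robust variance. It was 1 with quantile normalization (Gpx3), the 60th percentile filter and the brightest probe set per gene (Gstm2 in both) and within the second accession range (Gpx3). It was 2 with the accession range as a covariate and 3 with array weights or an adjusted p under 0.10. It was 0 to 2 when single arrays were left out, 2 only without KO replicate 2. The directions of 9 of the 13 held under all alternatives run, and those of Gpx1, 1 Gpx4 probe set (1451695_a_at), Gstp1 and Gstt1, none of which passed, did not. The range was -0.86 to -0.60 for Gstm2 and 0.54 to 0.97 for Gpx3.

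Over all probe sets 431 passed, against 235 with median scaling, 100 with no filter, 6 with no trend, 1312 with array weights, 726 within the second accession range, 1085 at an adjusted p under 0.10, 1986 without KO replicate 2 and 7 to 40 without any other single array. Of the related genes 3 passed, against 1 with median scaling, no filter or no trend, 9 with array weights, 6 with the accession covariate, 7 within the second range or at an adjusted p under 0.10, 13 without KO replicate 2 and 1 without any other single array. The causes were not tested.

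With the replicate number as a block 2183 probe sets passed, with 2 of the 13 (Gstm2 and Gpx3) and 17 related genes. KO replicate 2 has no partner and then adds nothing to the difference, so these log2 differences equal those without it. Deviations from the group means correlated by 0.057, 0.149 and 0.105 for replicates 1, 3 and 4. Not every pair was above 0.10, so the samples were taken to share only a number. These few values cannot show that samples of the same number were unpaired. Gsta3 and the other dim probe sets are limited by signal near background.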

Other observations

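Liver transcripts varied widely between arrays of both genotypes. Alb, the serum albumin gene, read 492.8, 4129, 411.3 and 4810 on KO arrays 1 to 4, and 2866, 569.3 and 9470 on WT arrays 1, 3 and 4. The summed signal of 5 liver markers was 1042 to 10268 in KO and 1532 to 18334 in WT. Of the 5, 0 changed with all arrays or without KO replicate 2 (limma). Alb, Apob and Ttr, which encodes transthyretin, were each lower in KO than in the WT array of the same number for replicates 1, 3 and 4. Apoa1 and Cps1 were not lower in every such pair. With the replicate number as a block Alb and Ttr passed (limma, Alb log2 difference -1.29, adjusted p = 0.0407, and Ttr -1.24, adjusted p = 0.00695). Apoa1 (-0.65, limma adjusted p = 0.117), Apob (-0.19) and Cps1 (0.11) did not. With this block 2183 of all 27022 tested probe sets passed, although the samples were taken to share only a number.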
